A study of Mus musculus with 2 samples.

Results

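Cycling C1q macrophages were the C1q macrophages of mouse mammary tumours whose RNA held genes of cell division. They were compared with C1q macrophages of the same library that held none of those transcripts. Immune cells came from 2 kinds of tumour, grown from the PyMT-N or the PyMT-M cell line after injection into the mammary gland, and both lines are named for the polyoma middle T oncogene that is used to model breast cancer. Tumours were harvested at 0.7 to 1 cm in diameter, 4 weeks after injection per the series' design text. Live cells with the leukocyte antigen CD45 were sorted from them, although the labels call the cell type tumour, and each line gave 1 droplet library of transcript 5′ ends, counted in unique molecular identifiers (UMIs). The labels do not give the meaning of N and M, the mouse strain or age, or how many tumours went into a library, and name no treatment or further allele.

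A cell was a C1q macrophage if it had at least 200 genes, at most 10% mitochondrial UMIs, at least 50 UMIs of C1qa, C1qb and C1qc per 10000, fewer than 50 UMIs of S100a8 and S100a9 per 10000 and no UMI of the T cell receptor complex genes Cd3d, Cd3e and Cd3g. It was called cycling with 3 or more UMIs of Mki67, Top2a, Birc5 and Cdk1 together, and non-cycling with 0. By this rule 372 of the 12351 cells kept from both libraries were cycling C1q macrophages, 63 in PyMT-N and 309 in PyMT-M. They were set against 412 non-cycling C1q macrophages in PyMT-N and 4397 in PyMT-M. The cells with 1 or 2 such UMIs, 59 in PyMT-N and 520 in PyMT-M, were in neither group. Since measured genes chose the cells, values of the cycling cells against the non-cycling ones describe the chosen cells. No test was possible between the lines either, with 1 library each, so no difference below has a replicate check. All intervals are 95% intervals and cover counting error only.

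Tumour macrophages derive from blood monocytes and from macrophages that were already in the tissue, and both can divide in place. Division runs through an S phase, in which DNA is copied, and a G2/M phase, in which the copies are separated by the spindle. Genes for S phase are switched on mainly by E2F factors, while many genes for G2/M are controlled by the DREAM and MYB-MuvB complexes and by FOXM1 through a short promoter element, the cell cycle homology region, often placed near CCAAT boxes that bind the factor NF-Y. C1qa, C1qb and C1qc encode the subunits of C1q, the first component of the classical complement pathway, which tissue macrophages make in large amounts.

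The promoters of the rule genes are shown because their transcripts chose the cells, and those of Nusap1 and Cdca3 because these genes were among the 4 cycle list genes outside the rule with the highest ratio in both libraries (the other two were Pbk and Ccna2). Mki67 encodes the proliferation antigen Ki-67, which coats mitotic chromosomes, Top2a encodes the topoisomerase that untangles DNA, Birc5 encodes survivin, a subunit of the chromosomal passenger complex, and Cdk1 encodes the kinase that drives entry into mitosis. Nusap1 encodes a spindle protein, and Cdca3 encodes a trigger of entry into mitosis. Each line gives the 250 bases before the start site from RefSeq, build GRCm38.p6, read 5′ to 3′ on the gene's own strand. Capitals mark the cell cycle homology region TTTGAA, the CCAAT box CCAAT and the E2F sites TTGGCGC or TTCCCGC, on either strand (TTCAAA and ATTGG are the first 2 read on the other strand).
Mki67 (chr7:135716380-135716629, minus strand): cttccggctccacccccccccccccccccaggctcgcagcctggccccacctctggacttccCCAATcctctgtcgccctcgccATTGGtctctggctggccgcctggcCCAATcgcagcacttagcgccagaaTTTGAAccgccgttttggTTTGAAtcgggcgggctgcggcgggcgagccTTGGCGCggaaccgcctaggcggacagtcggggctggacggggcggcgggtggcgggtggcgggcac
Top2a (chr11:99024190-99024439, minus strand): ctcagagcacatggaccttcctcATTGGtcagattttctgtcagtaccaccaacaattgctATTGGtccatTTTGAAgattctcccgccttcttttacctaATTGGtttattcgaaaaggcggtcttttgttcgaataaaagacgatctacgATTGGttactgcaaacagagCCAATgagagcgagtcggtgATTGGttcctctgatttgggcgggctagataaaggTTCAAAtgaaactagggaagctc
Birc5 (chr11:117848987-117849236, plus strand): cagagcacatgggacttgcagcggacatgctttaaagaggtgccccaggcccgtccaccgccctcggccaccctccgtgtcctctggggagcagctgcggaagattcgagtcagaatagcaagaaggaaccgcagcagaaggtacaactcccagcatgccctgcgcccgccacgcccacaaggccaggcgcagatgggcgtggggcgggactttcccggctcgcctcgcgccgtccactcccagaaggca
Cdk1 (chr10:69352913-69353162, minus strand): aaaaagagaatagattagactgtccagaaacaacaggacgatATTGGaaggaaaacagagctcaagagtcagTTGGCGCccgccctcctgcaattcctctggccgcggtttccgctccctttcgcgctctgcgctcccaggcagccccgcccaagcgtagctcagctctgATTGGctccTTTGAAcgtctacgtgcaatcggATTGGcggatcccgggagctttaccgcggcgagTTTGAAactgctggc
Nusap1 (chr2:119618048-119618297, plus strand): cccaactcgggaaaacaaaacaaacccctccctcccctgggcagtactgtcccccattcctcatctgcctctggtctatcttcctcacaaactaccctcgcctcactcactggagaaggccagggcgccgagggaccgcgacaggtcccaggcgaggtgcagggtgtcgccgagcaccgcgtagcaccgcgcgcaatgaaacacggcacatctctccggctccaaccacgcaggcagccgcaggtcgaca
Cdca3 (chr6:124829926-124830175, plus strand): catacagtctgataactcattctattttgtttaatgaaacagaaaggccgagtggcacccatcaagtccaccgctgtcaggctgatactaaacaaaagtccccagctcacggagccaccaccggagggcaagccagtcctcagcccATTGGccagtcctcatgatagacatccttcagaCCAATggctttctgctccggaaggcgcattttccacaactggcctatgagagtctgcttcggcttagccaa
Over a window that also took in the 50 bases after the start site, Mki67, Top2a and Cdk1 each held 2 copies of TTTGAA, Cdca3 held 1, which is not among the bases printed, and Birc5 and Nusap1 held 0. Top2a held 6 CCAAT boxes, and Mki67, Cdk1 and Cdca3 held 3 each. An E2F site stood once in Mki67 and once in Cdk1. Among the 10 lists of cell cycle genes described below, 209 of 254 genes had 243 promoters in this table. TTTGAA was in 35.0% of them, a CCAAT box in 65.0%, an E2F site in 28.0%, and TTTGAA together with a CCAAT box in 25.9%. Of all 32851 promoters in the table, 17.9% held TTTGAA, 37.4% held a CCAAT box, 6.81% held an E2F site and 6.95% held TTTGAA with a CCAAT box. Of 11817 promoters of genes measured in PyMT-M, 12.5% held TTTGAA and 11.9% an E2F site, but only 79.4% of those genes had a match, under the 80% asked for, so that comparison is void. TTTGAA was most frequent in the list of spindle, kinetochore and cytokinesis genes (30 of 47 promoters, 63.8%), and the E2F site in the list of origin licensing and helicase genes (11 of 19 promoters, 57.9%). A match is a stretch of letters and says nothing of binding in these cells.

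The depth of the chosen cells differed from that of the non-cycling ones. Cycling cells had a median of 7858 UMIs and 2315 genes in PyMT-N and 8414 UMIs and 2725 genes in PyMT-M. Non-cycling cells had medians of 4186 UMIs and 1478 genes in PyMT-N and 4805 UMIs and 1783 genes in PyMT-M. The rule itself favours deep cells, so larger dividing cells and this choice cannot be told apart. Median mitochondrial shares were close, at 2.94% in cycling and 2.87% in non-cycling cells of PyMT-N and 2.34% and 2.23% in PyMT-M. The summed UMIs behind each value were 528537 and 2901252 in cycling cells of PyMT-N and PyMT-M, so values of rare genes are far less precise in PyMT-N. The libraries shared 60 barcodes, of which 2 belonged to PyMT-N cycling cells and 4 to PyMT-M cycling cells, and no barcode was a cycling cell in both. Scores from a doublet caller marked 0 of 63 cycling cells in PyMT-N and 38 of 309 in PyMT-M (12.3%), against 2.91% and 4.55% of the non-cycling cells.

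Macrophage genes outside the rule were present in the cycling cells of both libraries, and markers of other cell types were present too, mainly in PyMT-M. Csf1r, the receptor for the growth factor CSF1 on which macrophages depend, stood at 481 CPM (counts per 1000000 UMIs) in cycling and 521 CPM in non-cycling cells of PyMT-N, and at 582 and 778 CPM in PyMT-M. Lyz2, the lysozyme gene of myeloid cells, stood at 6213 and 5575 CPM in PyMT-N and at 4113 and 6331 CPM in PyMT-M, again cycling cells first. Summed over 24 genes of macrophage identity, cycling cells had 257 UMIs per 10000 in PyMT-N and 326 in PyMT-M, and non-cycling cells had 269.9 and 405. Markers of natural killer (NK) cells, the 9 genes Ncr1, Klrb1c, Klrk1, Nkg7, Gzma, Gzmb, Prf1, Eomes and Klre1, summed to 3.64 UMIs per 10000 in cycling and 2.07 in non-cycling cells of PyMT-M, and none of them was at 0 in either group. In PyMT-N the same sums were 0.095 and 0.051, with 8 of the 9 at 0 in cycling cells. T cell markers summed to 0.665 and 0.257 per 10000 in cycling and non-cycling cells of PyMT-M, with 3 of 11 at 0 in cycling cells, and epithelial or tumour cell markers to 7.03 and 5.37, with 0 of 10 at 0. By gene, cycling over non-cycling in PyMT-M, 4 of 9 NK markers and 5 of 7 measured T cell markers were at least 2-fold higher, against 5.96% of all genes measured. Of 9 measured epithelial markers 0 were, which is near that share, and 5 had log2 ratios below 0. Sums of stromal or endothelial markers were 0.227 and 0.727 per 10000 in PyMT-M cycling and non-cycling cells, those of neutrophil markers 1.46 and 1.47, and those of dendritic cell markers 0.624 and 0.691. Their part in the results was not tested, but a count without cells that held 2 or more UMIs of any other cell type's markers, which left 163 of the 309 PyMT-M and 55 of the 63 PyMT-N cycling cells, is given where it changes a statement. Of the non-cycling cells it left 3216 of 4397 in PyMT-M and 357 of 412 in PyMT-N. The cut is a fixed number of UMIs, so deep cells meet it more readily.

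C1q macrophages with 3 or more cycle UMIs were 11.8% of all C1q macrophages in PyMT-N (9.19 to 14.8%, 63 of 534 cells) and 5.91% in PyMT-M (5.29 to 6.59%, 309 of 5226 cells). Of all sorted cells kept they were 1.26% in PyMT-N and 4.20% in PyMT-M, the opposite order, and C1q macrophages as a whole were 10.7% (PyMT-N) and 71.0% (PyMT-M) of those cells. The CD45 sort, the 500 and 501 UMIs of the smallest barcodes in PyMT-N and PyMT-M, and the many other cells of PyMT-N bear on these shares. With every cell thinned to 2000 UMIs, which left out 107 PyMT-N and 689 PyMT-M macrophages below that depth, 16.2% of PyMT-N C1q macrophages (12.8 to 20%) and 9.68% of PyMT-M ones (8.83 to 10.6%) held at least 1 cycle UMI. Unthinned, the shares with at least 1 were 22.8% and 15.9%. Neutrophils, which do not divide once mature, were set beside the macrophages as a background. Whether their cycle UMIs came from free RNA was not tested, and 1 of the 2924 PyMT-N neutrophils held 3 or more. At least 1 cycle UMI was in 0.855% of 2924 PyMT-N neutrophils (median 1779.5 UMIs) and in 2 of 46 PyMT-M neutrophils (median 1639 UMIs), while the macrophages had medians of 4647 and 5047 UMIs. At the 2000 UMIs of the thinned cells the PyMT-N neutrophil share was 0.947%. With cells thinned to 1000 UMIs, 3 or more cycle UMIs were in only 5 PyMT-N and 62 PyMT-M macrophages, and the shares of 0.978% (0.318 to 2.27%) and 1.24% (0.951 to 1.58%) did not differ beyond counting error.

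**Figure D1:**
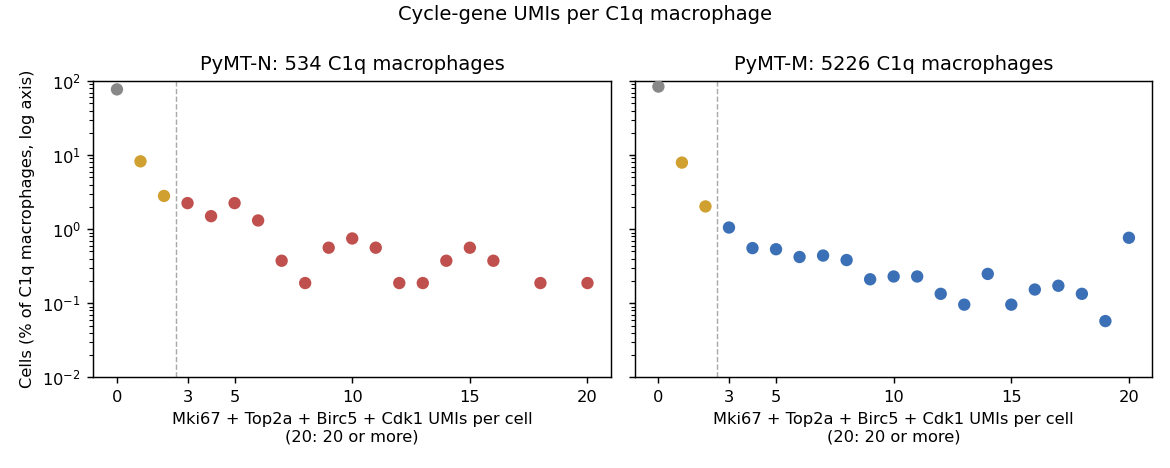
Share of C1q macrophages (per cent, log axis) by the summed Mki67, Top2a, Birc5 and Cdk1 UMIs of a cell, in PyMT-N (left, 534 cells) and PyMT-M (right, 5226 cells). Grey points are non-cycling cells, yellow points cells in neither group, and coloured points right of the dashed line cycling cells. Cycling cells run from the threshold of 3 UMIs up to 27 UMIs in PyMT-N and 43 in PyMT-M, drawn together at 20 or more. In PyMT-N 0 cells held 17 and 0 cells held 19 UMIs.

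Within the cycling cells the rule genes varied widely. A cell held a median of 5 cycle UMIs in PyMT-N and 7 in PyMT-M, and 18 PyMT-N and 121 PyMT-M cells held 10 or more. Birc5 was seen in 85.7% of PyMT-N and 91.3% of PyMT-M cycling cells, Mki67 in 65.1% and 77.0%, Top2a in 65.1% and 69.6%, and Cdk1 in 41.3% and 62.5%. All 4 genes were seen together in 12 PyMT-N and 120 PyMT-M cells. The 12 PyMT-N and 55 PyMT-M cells just inside the rule, with 3 UMIs, held 27.9 and 16.5 G2/M list UMIs per 10000. The 15 and 106 cells just outside it, with 2 UMIs, held 25.9 and 13.8. The counting intervals overlapped in PyMT-N but not in PyMT-M, where they were 15.4 to 17.7 inside and 12.9 to 14.7 outside. S list UMIs per 10000 were 16.4 and 18.3 just inside it and 17.8 and 16.0 just outside it.

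Cell cycle genes outside the rule were far higher in the cycling cells of both libraries that were chosen by the rule genes. A gene was measured with 20 or more UMIs over both groups, and ratios are log2 ratios of CPM with 1 CPM added, cycling over non-cycling, which pulls the ratio of rare genes toward 0 and can place it below its own interval, since intervals are of the plain ratio. Of the 254 cycle list genes other than the rule's, 109 of 169 measured in PyMT-N and 199 of 250 in PyMT-M had levels at least 2-fold higher in cycling cells. Genes near 0 in non-cycling cells reach the minimum of 20 UMIs only through the cycling cells. With no such minimum, 177 of 254 in PyMT-N and 200 of 254 in PyMT-M were at least 2-fold higher. Of all genes measured, as many as 4.9% in PyMT-N and 5.96% in PyMT-M were so much higher, and the median of all genes was 0.05 in both. Among the 169 genes measured in both libraries, 106 were at least 2-fold higher in both. These lists and the rule genes come from the same contrast, and nothing is supported by this count.

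Genes that load and open replication origins were higher, with a median of 1.48 over 13 genes in PyMT-N and 1.96 over 19 in PyMT-M. They included the helicase subunit gene Mcm6, at 68.1 CPM in cycling and 20.2 CPM in non-cycling cells of PyMT-N and at 80.3 and 23.1 CPM in PyMT-M. Dbf4, the activator of the kinase that fires origins, was at 54.9 against 11.6 CPM in PyMT-N and at 69.3 against 12.1 CPM in PyMT-M. Gmnn, an inhibitor of repeated licensing, had ratios of 1.48 (0.90 to 2.12) and 2.47 (2.32 to 2.73). Replication fork and nucleotide genes had medians of 1.70 over 34 genes in PyMT-N and 2.33 over 47 in PyMT-M. The thymidine kinase gene Tk1 stood at 132 CPM in cycling and 14.6 CPM in non-cycling cells of PyMT-N, and at 230 and 20.3 CPM in PyMT-M. Rrm2, a subunit of the ribonucleotide reductase that supplies deoxynucleotides, was at 70.0 against 3.54 CPM in PyMT-N and at 164 against 1.81 CPM in PyMT-M.

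Of the genes for chromatin proteins, 21 of 23 (PyMT-N) and 26 of 27 (PyMT-M) were at least 2-fold higher. H2afz, a histone variant gene expressed in all cells, was at 2812 CPM in cycling and 1016 CPM in non-cycling cells of PyMT-N and at 2783 and 669 CPM in PyMT-M. The linker histone gene Hist1h1b was at 64.3 against 0.505 CPM in PyMT-N, and at 71.7 against 1.85 CPM in PyMT-M. Hist1h2ap was at 204 and 3.03 CPM in PyMT-N and at 78.2 and 2.14 CPM in PyMT-M, cycling cells first. Histone genes have near-identical copies, so how reads were divided among them is uncertain.

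Mitotic genes had the highest ratios. The spindle, kinetochore and cytokinesis list had 22 of 23 genes at least 2-fold higher in PyMT-N, with a median of 4.39, and 45 of 46 in PyMT-M, with a median of 4.03. In PyMT-N only 23 of the 46 were measured, and the minimum favours genes high in cycling cells, so the medians cannot be ranked between libraries. Summed over all 46 genes, the log2 ratios were 2.53 and 2.65. Without the cells holding other markers the medians were 4.25 and 4.32. Hmmr, a microtubule-binding protein gene, stood at 68.1 CPM in cycling and 1.01 CPM in non-cycling cells of PyMT-N and at 49.98 and 0.084 CPM in PyMT-M. Cenpa, which encodes the histone that marks the centromere, was at 322 against 42.9 CPM in PyMT-N and at 338 against 12.8 CPM in PyMT-M. Nusap1 was at 37.8 CPM in the cycling cells of PyMT-N, against no UMI in the non-cycling ones, which makes it at least 24.98-fold higher against a floor of 3 UMIs over the group. Mitotic kinases and checkpoint genes had 7 of 8 in PyMT-N and 19 of 19 in PyMT-M at least 2-fold higher, with medians of 3.52 and 3.83. Summed over all 19 genes, the log2 ratios were 2.72 and 3.02. Aurka, the Aurora A kinase gene, was at 41.6 against 1.52 CPM in PyMT-N and at 63.8 against 1.34 CPM in PyMT-M.

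Cyclins and their partners, of which only some are made in waves through the cycle, were at least 2-fold higher for 6 of 12 genes in PyMT-N and 11 of 17 in PyMT-M. Ccna2, the S and G2 cyclin gene, was at 138 CPM in cycling and 2.02 CPM in non-cycling cells of PyMT-N, and at 199 and 1.13 CPM in PyMT-M. Ccnb1, a mitotic cyclin gene, was at 37.8 against 1.01 CPM and at 81.7 against 0.420 CPM. Cdk4, the kinase gene of early G1, which is not made in waves, had ratios of 0.56 (0.25 to 0.87) in PyMT-N and 0.90 (0.78 to 1.03) in PyMT-M, under 2-fold in both. Without the cells holding other markers the PyMT-M ratio was 1.00, at the 2-fold limit. The anaphase-promoting complex marks mitotic proteins for destruction, and of its genes and partners 4 of 13 (PyMT-N) and 7 of 15 (PyMT-M) were at least 2-fold higher. Its activator gene Cdc20 had ratios of 4.21 in PyMT-N and 5.25 in PyMT-M and its ubiquitin-conjugating enzyme gene Ube2c 4.46 and 6.61, while the core subunit gene Anapc11 had 0.81 and 0.94. Condensin genes Smc2 and Smc4, which compact chromosomes, had ratios of 3.42 and 2.72 in PyMT-N and 3.38 and 2.70 in PyMT-M. Among the transcription factors of the cycle, E2f8, a repressor of the E2F family, was at 37.8 against 5.05 CPM in PyMT-N and at 43.8 against 1.13 CPM in PyMT-M, and E2f4 had ratios of 0.21 and 0.42.

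CDK inhibitors and quiescence genes did not share a direction. In PyMT-N 3 of 20 were at least 2-fold higher and 4 lower, with a median of -0.18, and in PyMT-M 5 of 25 were higher and 0 lower, with a median of 0.01. Over all genes measured, 5.25% in PyMT-N and 1.64% in PyMT-M were at least 2-fold lower. Cdkn3, a phosphatase gene expressed with mitosis, had ratios of 3.20 (2.29 to 4.86) in PyMT-N and 5.17 (5.44 to 6.59) in PyMT-M, and Cdkn2c, which encodes the inhibitor p18, had 3.28 (2.42 to 4.81) and 3.11 (2.97 to 3.52). Btg2, an antiproliferative gene, was at 163 CPM in cycling and 270 CPM in non-cycling cells of PyMT-N and at 506 and 827 CPM in PyMT-M. Klf6 differed between libraries, with ratios of 0.33 (0.08 to 0.58) in PyMT-N and -0.45 (-0.55 to -0.36) in PyMT-M, and the difference has no test.

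**Figure D2:**
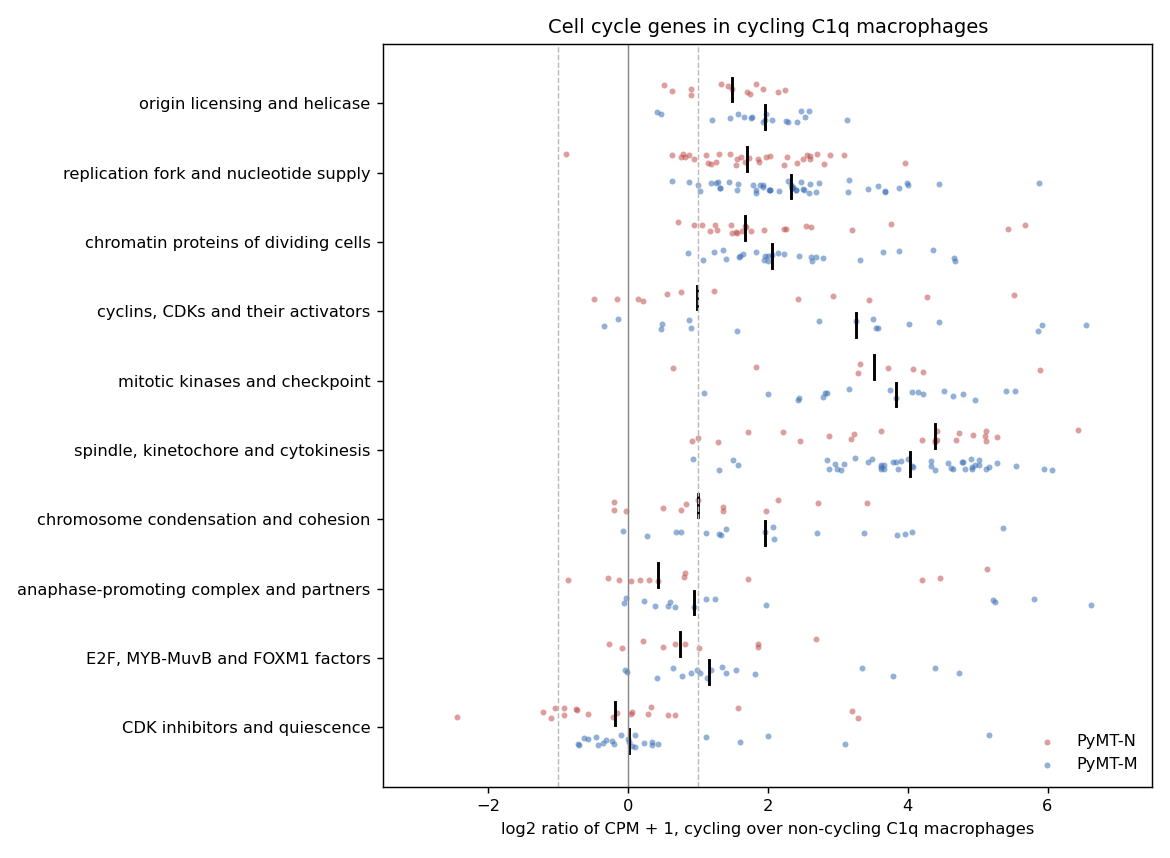
Log2 ratios of CPM plus 1, cycling over non-cycling C1q macrophages, for each measured gene of the 10 cell cycle lists, PyMT-N (red) above PyMT-M (blue). Black bars are list medians, dashed lines mark 2-fold, and the rule genes are left out. Spindle and mitotic kinase genes lie furthest right in both libraries, and CDK inhibitors and quiescence genes spread around 0.

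Outside all cycle lists, the first gene by the naming rule was Pclaf, which encodes a partner of the replication clamp PCNA. It stood at 452 CPM in cycling and 15.7 CPM in non-cycling cells of PyMT-N, and at 396 and 5.38 CPM in PyMT-M. The others named by the same rule were Ccdc34, Dnajc9, Lsm2, Nucks1, Reep4, Syce2, Selenoh, Sae1, Mis18a, Nsd2 and Rbbp7. Their ratios lay between 1.34 and 1.92 in PyMT-N and between 1.29 and 2.02 in PyMT-M. Several work with DNA or chromatin: Dnajc9 is a histone chaperone, Mis18a helps to load the centromeric histone, Nsd2 is a histone methyltransferase and Rbbp7 a subunit of histone-modifying complexes.

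More of the phase-list RNA belonged to G2/M than to S. Of the UMIs of the 45 S and 48 G2/M list genes, 33.3% were of S genes in PyMT-N cycling cells (31.6 to 35.1%) and 31.0% in PyMT-M ones (30.4 to 31.6%), against 49.1% and 50.7% in the non-cycling cells. Mki67, Top2a, Birc5 and Cdk1 are themselves known mainly from G2/M or late S phase, so this part depends on the rule, although none of the 4 is in either list. The cells with 1 or 2 cycle UMIs had S parts of 45.6% in PyMT-N and 52.5% in PyMT-M. S list RNA stood at 18.5 UMIs per 10000 in PyMT-N cycling cells and 22.8 in PyMT-M ones, against 5.50 and 5.23 in non-cycling cells. G2/M list RNA stood at 37.1 and 50.8 per 10000, against 5.70 and 5.08. Neutrophils had 3.27 S and 11.8 G2/M UMIs per 10000 in PyMT-N.

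Per cell, thinned to 1000 UMIs, 53 PyMT-N and 262 PyMT-M cycling cells held 3 or more phase-list UMIs. More S than G2/M UMIs were in 12 of those in PyMT-N and 76 in PyMT-M, more G2/M than S in 38 and 173, and 9 and 65 cells lay between 40 and 60% S. The classes are ranges of a score and not kinds of cell. S-leaning cells had 185 UMIs of MHC class II genes per 10000 in PyMT-N and 356 in PyMT-M, and G2/M-leaning cells had 167 and 297. Interferon genes ran in opposite orders, with 28.0 UMIs per 10000 in S-leaning and 16.5 in G2/M-leaning cells of PyMT-N, and 32.7 and 52.3 in PyMT-M. The PyMT-N values rest on 12 S-leaning cells.

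**Figure D3:**
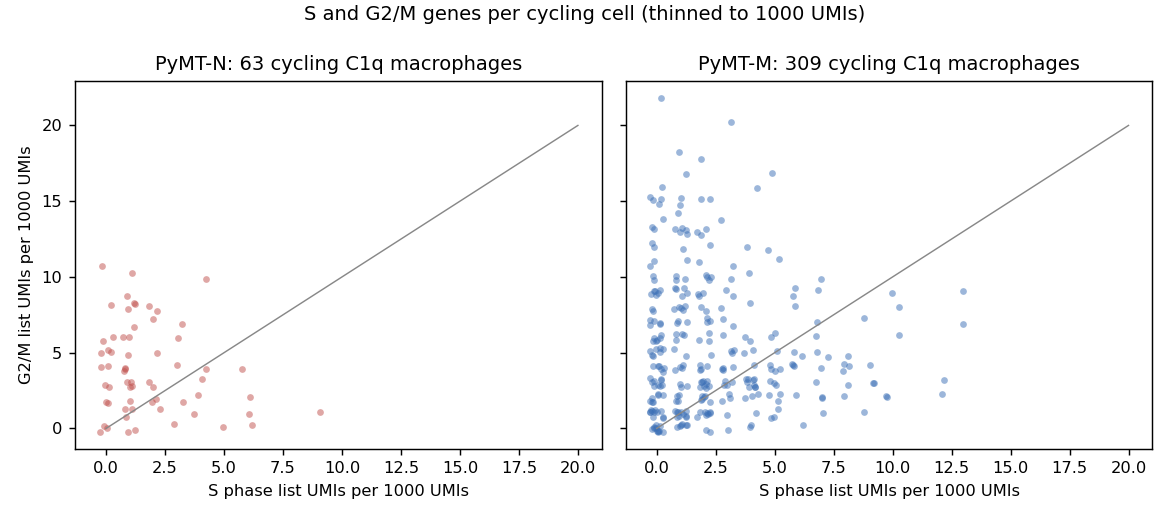
G2/M list UMIs against S list UMIs of each cycling C1q macrophage after thinning to 1000 UMIs, in PyMT-N (left, 63 cells) and PyMT-M (right, 309 cells), with points moved at random by a small amount so that cells do not overlap. The diagonal marks equal numbers. In PyMT-N 38 cells and in PyMT-M 173 cells with 3 or more such UMIs lie above it, and 12 and 76 below it.

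Macrophage genes were mostly lower per UMI in cycling cells, by less than 2-fold for most. Cycling cells held more UMIs at the median, so a lower CPM does not by itself mean fewer transcripts of the gene in the cell. Of the macrophage list genes measured, 42 of 274 in PyMT-N and 19 of 310 in PyMT-M were at least 2-fold lower, and 4 and 6 were higher by as much. In PyMT-M the 6.13% lower compares with 1.64% of all genes, and in PyMT-N the 15.3% with 5.25%. The higher ones were 1.46% in PyMT-N and 1.94% in PyMT-M, under the 4.9% and 5.96% of all genes. Only 6 of the 273 genes measured in both libraries were at least 2-fold lower in both: Cd163, Hp, Hspa1b, Ifit3, Ly6c2 and Lyve1, or 2.20%, against 0.300% of all 7670 genes measured in both. Below 0 in both were 148, or 54.2%, against 27.5% of all genes. Of the 6, only Ly6c2 and Lyve1 stayed at least 2-fold lower in both without the cells holding other markers, with ratios of -2.47 and -1.46 in PyMT-N and -1.32 and -1.29 in PyMT-M. Without them the PyMT-M ratios were -0.32 for Cd163, -0.68 for Hp, -0.68 for Hspa1b and -0.81 for Ifit3, and the PyMT-N ratio of Hp was -0.25. Hspa1b had no UMI in PyMT-M cycling cells, which bounds it at only 1.30-fold lower or more.

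MHC class II genes, which present antigen to helper T cells, were lower in both libraries. Cd74, the invariant chain gene, stood at 8692 CPM in cycling and 17127 CPM in non-cycling cells of PyMT-N, and at 18107 and 28388 CPM in PyMT-M. H2-Ab1 was at 2153 against 4308 CPM in PyMT-N and at 3697 against 5779 CPM in PyMT-M, H2-Aa had ratios of -1.05 (-1.14 to -0.96) and -0.63 (-0.66 to -0.60), and H2-Eb1 -1.01 and -0.68. All 4 were lower in cycling cells of each library. Of 10 genes measured, 3 (PyMT-N) and 0 (PyMT-M) were at least 2-fold lower, with medians of -0.72 and -0.36. Without the cells holding other markers the medians were -1.07 and -0.49. Summed over the list, cycling cells had 163 UMIs per 10000 in PyMT-N and 319 in PyMT-M, and non-cycling cells 321 and 496. In UMIs per cell the values were 137 and 299 in cycling cells and 154 and 268 in non-cycling cells, so per cell the cycling cells held fewer in PyMT-N and more in PyMT-M. Single cycling cells spread widely. The lowest, median and highest were 0, 93.4 and 590.1 per 10000 in PyMT-N and 3.69, 290.3 and 1272 in PyMT-M, and non-cycling cells ran from 0 over medians of 212 and 454 to 1642 and 3346. The groups overlap widely.

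Genes of tissue-resident macrophages were lower in PyMT-M, with 11 of 20 at least 2-fold lower, 0 higher and a median of -1.23, or -1.17 with the member that was at 0 set to its bound. In PyMT-N 3 of 14 were at least 2-fold lower, with a median of -0.74. Their summed level was 23.1 UMIs per 10000 in cycling and 44.7 in non-cycling cells of PyMT-M, and 37.9 and 43.3 in PyMT-N. The median cell went the other way in PyMT-N, at 38.2 per 10000 in cycling and 32.9 in non-cycling cells. In PyMT-M these medians were 12.1 and 22.3. In UMIs per cell, cycling cells held 31.8 against 20.8 in PyMT-N and 21.7 against 24.2 in PyMT-M. Ccl8, a chemokine gene, stood at 307 CPM in cycling and 573 CPM in non-cycling cells of PyMT-N, and at 151 and 444 CPM in PyMT-M. Cbr2, a carbonyl reductase gene, was at 58.7 against 112 CPM in PyMT-N and at 42.1 against 98.6 CPM in PyMT-M. The hyaluronan receptor gene Lyve1 had ratios of -1.83 (-4.33 to -0.36) and -1.30 (-1.89 to -0.88). Cd163, a receptor gene for haemoglobin complexes, had no UMI in PyMT-N cycling cells, at least 3.74-fold lower than the 21.2 CPM of the non-cycling ones, and 3.79 against 12.2 CPM in PyMT-M, where its ratio was -1.47, or -0.32 without the cells holding other markers. Selenop, which encodes a selenium carrier, was at 1430.1 against 1898 CPM in PyMT-N and at 1323 against 2600.4 CPM in PyMT-M. Pf4, the platelet factor 4 gene that resident macrophages also express, went the other way in PyMT-N, at 910.1 against 673 CPM, and stood at 211 against 260.2 CPM in PyMT-M.

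Several regulatory genes outside the cycle lists were lower in both libraries. Cebpa, a myeloid transcription factor gene that restrains division, was at 62.4 CPM in cycling and 118 CPM in non-cycling cells of PyMT-N and at 145 and 257 CPM in PyMT-M. The list of 21 macrophage transcription factors as a whole had medians of -0.29 and -0.33, with 1 and 1 at least 2-fold lower and 1 and 0 higher. Zfp36l1, an RNA-decay factor gene, had ratios of -1.09 (-1.60 to -0.63) and -0.84 (-1.01 to -0.69). The immediate early factor gene Junb was at 666 against 1113 CPM in PyMT-N and at 2154 against 3463 CPM in PyMT-M. Hmox1, the haem-degrading enzyme gene, had ratios of -0.80 and -0.79, Ypel3 -1.15 and -0.66, Ccrl2 -0.93 and -0.74, Pltp, a lipid transfer protein gene, -1.08 and -0.69, and Flot1 -0.72 (-1.60 to 0.03) and -0.89 (-1.20 to -0.62). These genes, with H2-Eb1, Cbr2 and Ccl8, were named as among the lowest in both libraries outside the cycle lists.

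**Figure D4:**
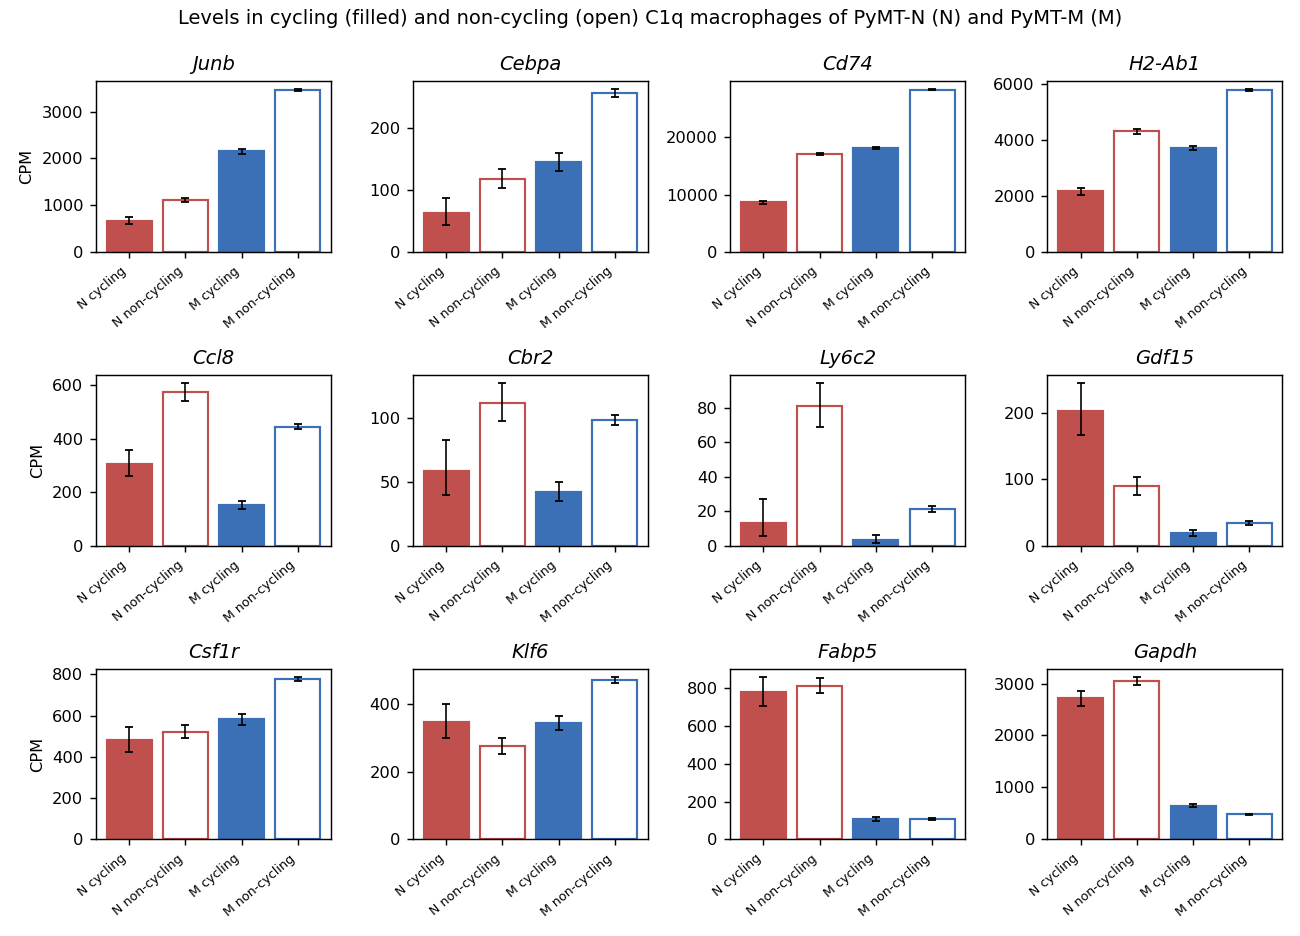
CPM of 12 genes in cycling (filled bars) and non-cycling (open bars) C1q macrophages of PyMT-N (red, left pair) and PyMT-M (blue, right pair), with error bars of the exact 95% counting interval, 1 library per line. Junb, Cebpa, Cd74, H2-Ab1, Ccl8, Cbr2 and Ly6c2 are lower in cycling cells of both lines. Fabp5 and Gapdh differ more between lines than with division.

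Among monocyte genes, Ly6c2 was lower in both libraries. Ly6c2 is the gene of the Ly6C antigen that marks inflammatory monocytes, and stood at 13.2 CPM in cycling and 80.8 CPM in non-cycling cells of PyMT-N (ratio -2.52, -3.95 to -1.53) and at 3.45 and 21.2 CPM in PyMT-M (-2.32, -3.69 to -1.73). Without the cells holding other cell types' markers the PyMT-M ratio was -1.32. Over the list, 6 of 15 genes in PyMT-N and 2 of 18 in PyMT-M were at least 2-fold lower, with medians of -0.81 and -0.01. The PyMT-M median was -0.49 without the cells holding other markers. S100a6, a calcium-binding protein gene, had a ratio of -1.03 (-1.27 to -0.80) in PyMT-N and 0.35 (0.26 to 0.44) in PyMT-M, but the PyMT-M ratio was -0.66 without the cells holding other markers, -0.42 with non-cycling cells weighted to the depths of the cycling ones and -0.09 with a C1q minimum of 100 per 10000.

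Most interferon-stimulated genes were lower per UMI in cycling cells, more so in PyMT-N. The type I interferon list had 10 of 35 genes at least 2-fold lower in PyMT-N, with a median of -0.74, and 2 of 39 in PyMT-M, with a median of -0.45, and none was 2-fold higher. Its summed level was 24.4 UMIs per 10000 in cycling and 39.5 in non-cycling cells of PyMT-N, and 46.6 and 56.4 in PyMT-M. The median cell had 12.2 and 16.6 per 10000 in PyMT-N and 36.5 and 37.7 in PyMT-M. In UMIs per cell, cycling cells held more in both libraries, at 20.5 against 19.0 in PyMT-N and 43.7 against 30.5 in PyMT-M. Ifi27l2a, the most abundant member, was at 1387 against 2384 CPM in PyMT-N and at 1677 against 1574 CPM in PyMT-M. Isg20, an exonuclease gene, had ratios of -3.01, from 1 UMI in PyMT-N cycling cells, and -0.53 (-0.96 to -0.17) in PyMT-M. Interferon-gamma responsive genes had medians of -0.54 over 14 genes and -0.25 over 18. Their summed level was 6.57 UMIs per 10000 in cycling and 7.33 in non-cycling cells of PyMT-N. In PyMT-M it was higher in cycling cells, at 14.7 against 13.6. Their immunoproteasome genes Psmb8 and Psmb9 had ratios of -0.14 and 0.06 in PyMT-N and of 0.40 and 0.44 in PyMT-M.

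Growth-related lists were higher by less than 2-fold. Ribosome biogenesis and MYC target genes had medians of 0.36 over 24 genes in PyMT-N and 0.39 over 25 in PyMT-M, with 1 at least 2-fold higher in each. These counts are near the shares of all genes that were so, 4.9% in PyMT-N and 5.96% in PyMT-M. Npm1, the nucleolar protein gene, was at 927 against 745 CPM in PyMT-N and at 516 against 410 CPM in PyMT-M. Cholesterol and fatty acid synthesis genes had medians of 0.22 over 16 genes and 0.45 over 25, with 1 and 4 at least 2-fold higher, the first again near the share of all genes. The sterol regulator gene Srebf2 had ratios of 0.23 (-0.68 to 1.07) and 0.79 (0.51 to 1.12). Hypoxia and glycolysis genes had medians of -0.37 in PyMT-N, with 5 of 25 at least 2-fold lower, and 0.16 in PyMT-M, with 0 of 24. Vegfa, the angiogenic factor gene, stood at 7.57 CPM in cycling and 45.5 CPM in non-cycling cells of PyMT-N (ratio -2.44, -4.49 to -1.18) and at 4.14 and 3.61 CPM in PyMT-M. Its PyMT-M ratio of 0.15 (-0.81 to 1.07) was -0.82 without the cells holding other markers. Immediate early and stress genes had medians of -0.42 and -0.37, chemokines and cytokines -0.18 and -0.25, growth factors and receptors -0.25 and -0.32, macrophage identity genes -0.11 and -0.39, and lipid-associated macrophage genes -0.06 and -0.31. Apoe, the lipid carrier gene that leads the last list, was at 6976 against 10178 CPM in PyMT-N and at 17247 against 28208 CPM in PyMT-M.

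**Figure D5:**
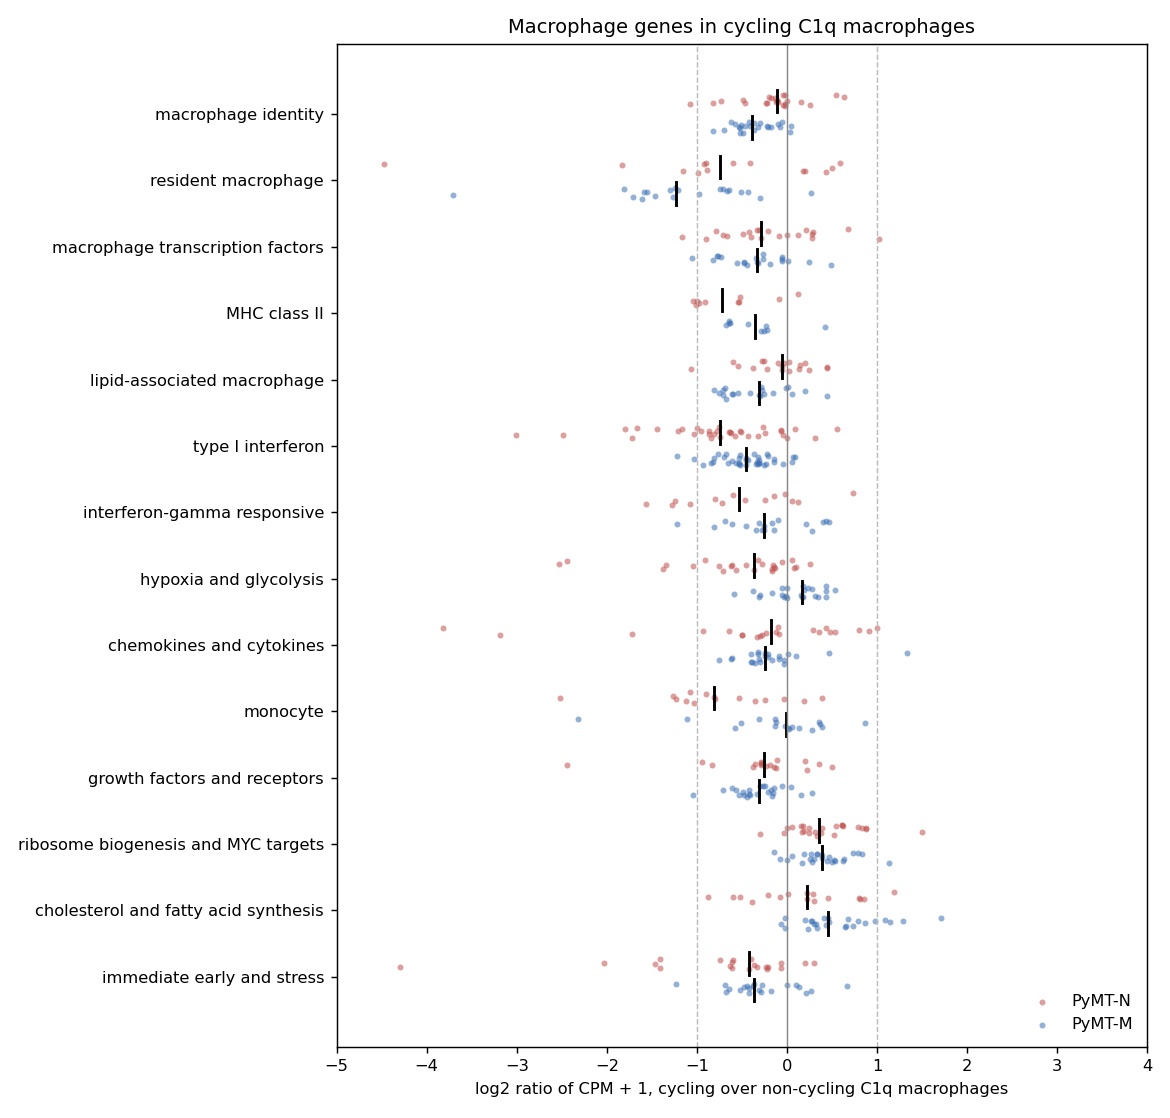
Log2 ratios of CPM plus 1, cycling over non-cycling C1q macrophages, for each measured gene of the 14 macrophage lists, PyMT-N (red) above PyMT-M (blue). Black bars are list medians and dashed lines mark 2-fold. Resident macrophage genes in PyMT-M have the lowest median, and ribosome biogenesis and cholesterol genes lie to the right of 0 in both.

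Between the cycling cells of the lines, PyMT-N over PyMT-M, the median of all genes was -0.20, and ratios are to be read against that shift. At least 2-fold higher in PyMT-N were 3.12% of 8948 genes, and 14.9% were at least 2-fold lower. Of the 524 list genes measured, 32 had levels at least 2-fold higher and 126 at least 2-fold lower in PyMT-N, and with scaling by the median ratio in place of the total 43 were higher and 87 lower. The 10 cell cycle lists had medians from -0.69 to -0.13, and of the spindle list 11 of 46 genes were at least 2-fold lower in PyMT-N and 0 higher. Without the cells holding other markers the medians ran from -0.96 to -0.35. Cenpa had a ratio of -0.07 (-0.31 to 0.17), Pclaf 0.19 (-0.01 to 0.39) and Ube2c -0.90 (-1.17 to -0.64). Hist1h2ap was higher in PyMT-N, at 1.37 (1.04 to 1.72).

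Macrophage lists differed between the lines in cycling cells, and their values in the non-cycling cells are set beside them. Type I interferon genes had a median of -1.58 in cycling cells, with 30 of 38 at least 2-fold lower in PyMT-N, and of -1.32 in non-cycling cells, where 10.8% of all genes were as low. Hypoxia and glycolysis genes had medians of 0.68 and 1.18, with 8 of 21 and 16 of 25 at least 2-fold higher, where 3.26% of all genes were so in non-cycling cells. Gapdh, the glycolytic enzyme gene, stood at 2713 CPM in PyMT-N against 646 CPM in PyMT-M cycling cells (2.07, 1.97 to 2.17), with a ratio of 2.67 in non-cycling cells. Resident macrophage genes had a median of 0.54 over 14 genes in cycling and -0.23 over 20 in non-cycling cells. In cycling cells 6 of the 14 had at least 2-fold more in PyMT-N, while 2 had as much less. In non-cycling cells the counts were 1 and 6 of 20, or 1 and 4 with members at 0 set to their bounds. The minimum of 20 UMIs left out the 5 list genes with no UMI in PyMT-N cycling cells, so these medians cannot be compared. Summed over all 20 genes, levels per 10000 UMIs were 37.9 (PyMT-N) and 23.1 (PyMT-M) in cycling and 43.3 and 44.7 in non-cycling cells. Without the cells holding other markers the median of the resident genes in cycling cells was 1.23. MHC class II genes had medians of -0.81 and -0.54. None of these differences between cycling and non-cycling cells has a test.

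Of single genes higher in PyMT-N cycling cells, the fatty acid binding protein gene Fabp5 stood at 781 CPM in PyMT-N against 108 CPM in PyMT-M (2.85, 2.64 to 3.07). Msr1, a scavenger receptor gene, was at 174 against 26.5 CPM and Cd93, a gene of a C-type lectin-like receptor, at 123 against 16.2 CPM. Nme1, a nucleoside diphosphate kinase gene, was at 197 against 36.5 CPM, and Erh, Polr2l and Sdc4 had ratios of 2.40, 2.41 and 2.36. These 7 genes were seen in 31 to 46 of the 63 PyMT-N cells. Apart from Scgb2b27 and Xcl1 below, values in non-cycling cells are not set beside the single genes named between lines. None of them is thus shown to be particular to cycling cells. Gdf15, Hilpda and Mmp13, seen in 14, 18 and 17 of the 63 cells, owed part of their ratio to 1 cell each. One cell held 63 of the 107 Gdf15 UMIs in PyMT-N, and the ratio of this stress cytokine gene was 3.40 with it and 2.17 without it, or 2.59 without the cells holding other markers. For Hilpda, a lipid droplet protein gene, 1 cell held 40 of 71 UMIs, and the ratio was 3.26 with it and 2.12 without, or 3.93 without the cells holding other markers. For the collagenase gene Mmp13 the ratio was 3.64 with and 2.95 without its highest cell.

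Genes higher in PyMT-M were of 2 sorts. Ccl5, a chemokine gene, was at 1.89 CPM (1 UMI) in PyMT-N and at 1774 CPM in PyMT-M, with a UMI in 204 of the 309 cells, and its ratio of -9.26 was -10.67 without the cells holding other markers. Klra17, a Ly49 receptor family gene, was at 5.68 CPM in PyMT-N against 251 CPM in PyMT-M (215 cells), and Pik3ap1, a signalling adaptor gene, at 5.68 CPM against 97.5 CPM (157 cells). Fcrl5, an Fc receptor-like gene, and Gdf3, a TGF-beta family gene, had no UMI in PyMT-N cycling cells, at least 14.3-fold and 16.6-fold lower than their 81.3 and 94.4 CPM in PyMT-M, in 113 and 73 cells. H2-M2 was at 1.89 CPM in PyMT-N against 69.6 CPM in PyMT-M (54 cells). The other sort came from few cells. Xcl1, a lymphocyte chemokine gene, had no UMI in PyMT-N and stood at 78.9 CPM in PyMT-M, from 11 of the 309 cells, and it had no UMI in either line without the cells holding other markers. Without those cells the ratio between lines was also smaller in size for Scgb2b27 (-3.67, against -6.45) and larger for Klra17 (-6.35, against -5.24) and H2-M2 (-6.25, against -4.61). Cd7, a T and NK cell antigen gene, was at 122 CPM from 20 cells and had a ratio of -5.41, or -0.83 without those cells. Csn3, a casein gene, was at 53.4 CPM from 9 cells, and Scgb2b27, a secretoglobin gene, at 86.2 CPM from 36 cells, 1 of which held 130 of its 250 UMIs. Scgb2b27 and Xcl1 also had no UMI in PyMT-N non-cycling cells, and stood at 166 and 15.4 CPM in PyMT-M non-cycling cells. Their difference between lines was therefore not confined to cycling cells. Xcl1 and Cd7 were also higher in cycling than in non-cycling cells of PyMT-M, with ratios of 2.29 and 1.39, beside the NK marker sums of 3.64 and 2.07 per 10000.

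Positions of some of these genes, from the GENCODE annotation of GRCm38, were as follows. Pclaf lies at chr9:65890237-65903266, Ccna2 at chr3:36564865-36572150, Cebpa at chr7:35119293-35121928, H2-Ab1 at chr17:34257689-34269419, Ly6c2 at chr15:75108158-75111970 and Ccl8 at chr11:82115185-82116799.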

How the data were processed

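Libraries of CD45+ DAPI- cells from mouse mammary tumours, 1 per tumour line, were measured with a droplet 5′ method. Per the submitters' processing notes, Cell Ranger, Seurat and the build mm10 were used, and the matrices name software version 3.1.0, per the file headers. The deposited values are UMI counts per gene and cell that the authors left unnormalized. An annotation release is not stated in those sources.

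UMIs of 36 extra gene IDs that share a symbol were added to that symbol. Cells were chosen by the rule given above, and the UMIs of each group's cells were pooled and divided by their total to give CPM. The members and all gene lists were chosen with earlier results of these data known. Ratios are log2 with 1 CPM added, for genes with at least 20 UMIs over both groups, and at least 2-fold means a log2 ratio of 1 or more in size. Intervals are exact 95% intervals (Poisson for levels, Clopper-Pearson for shares, conditional binomial for ratios). They and the floor of 3 UMIs per group cover counting error only, and no test was made because cells are not replicates. Scrublet's automatic threshold marked 0 cells, so doublets stayed in, and an alternative removed the 200 PyMT-N and 433 PyMT-M cells with the highest scores, from an expected rate of 0.8% per 1000 cells. The naming rule took up to 4 genes per list, up to 12 per direction outside the cycle and phase lists with the largest ratio shared by both libraries, and up to 10 per direction between lines, with minimum levels and without marker list genes. Other alternatives were the minimum of cycle UMIs and of C1q, the mitochondrial limit, thinning, removal of cells with 2 or more UMIs of another cell type's markers, per-cell means, weighting by depth, scaling, pseudocount and filter. Counting was checked on simulated data. Python 3.11.15, numpy 2.4.6, scipy 1.17.1, pandas 2.3.3 and scanpy 1.11.5 were used. A result that concerns a withheld item is not reported here.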

Additional observations from a re-analysis of the deposited data

Results flagged for a closer look

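Of 475 genes looked at, 6 lay at least 0.5 apart from 0 on the log2 scale in opposite directions in the 2 libraries, cycling over non-cycling, with counting intervals that left out 0. The difference between the libraries was not tested in any of them. Stab1, a scavenger receptor gene of resident macrophages, had a ratio of 0.59 in PyMT-N and -0.74 in PyMT-M. Without the cell with the most Stab1 UMIs the ratios were 0.53 and -0.79. Fcrls, an Fc receptor-like gene, had 0.54 in PyMT-N and -0.58 in PyMT-M, or 0.44 and -0.63 without the highest cell. Igf1, the insulin-like growth factor gene, had 0.50 in PyMT-N and -0.71 in PyMT-M, or 0.33 and -0.80. The chemokine gene Ccl12 had 0.53 in PyMT-N and -0.62 in PyMT-M, or 0.36 and -0.67. The interleukin gene Il1a had 0.91 in PyMT-N and -0.61 in PyMT-M, or 0.37 and -0.70. Gdf15 had 1.17 in PyMT-N and -0.86 in PyMT-M, but 1 PyMT-N cell held 63 of its 107 UMIs, and without the highest cell the ratios were -0.05 and -1.49, both below 0.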

How the results depend on the processing

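The cycling share was 8.05% (PyMT-N) and 4.31% (PyMT-M) with a minimum of 5 cycle UMIs, 7.94% in PyMT-M with a minimum of 2, and 16.2% and 9.68% for 1 or more in cells thinned to 2000 UMIs. The S part as a mean of per-cell shares was 30.02% in PyMT-N and 32.5% in PyMT-M, and 28.1% in PyMT-M with a minimum of 5. Without a minimum of UMIs, 177 cycle list genes of PyMT-N were at least 2-fold higher in cycling cells. Macrophage list genes higher by 2-fold or more in cycling cells of PyMT-N numbered 2 without cells holding other markers, 8 with depth weights, 2 with median ratio scaling, 1 with a pseudocount of 5 CPM and 7 with no minimum. In PyMT-M they numbered 10 without the highest Scrublet scores and 2 with a pseudocount of 5 CPM, and the lower ones were 8 with that pseudocount. The Csn3 ratio between lines, -4.23, was 0.89 without cells holding other markers. The cause of these moves was not tested. The other 79 values of shares and counts lay within the spread allowed for them, as did 604 of 648 list medians. Of the named genes' ratios over the alternatives, 1928 stayed within their counting interval, 447 left it and 1, that of Csn3, was classed as reversed. Some of those that left it changed sign too. Among them was S100a6 in PyMT-M, at 0.35, and at -0.66 without the cells holding other markers. No paired analysis was possible because each line had 1 library. With 63 cycling cells in PyMT-N, values of rare genes there are imprecise, and removing cells with other cell types' markers left 163 of the 309 PyMT-M cycling cells.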
